A study of Homo sapiens with 12 samples.

Results

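The transcripts described here are the messenger RNA isoforms that GENCODE release 29 annotates as nonsense-mediated decay (NMD) transcripts and that were detected in HK-2 cells, an established human line from kidney proximal tubule epithelium. A transcript was kept when its deposited value was at least 1 in 3 or more of the 12 libraries. This rule kept 3933 NMD transcripts in 2715 genes, out of 61128 transcripts of any type that passed the same filter and 15239 NMD transcripts listed in the table. The control cells were kept in plain medium for 72 h, and the treated cells received a suspension of 2,8-dihydroxyadenine (DHA), a poorly soluble purine that forms kidney stones and crystals in adenine phosphoribosyltransferase deficiency, at 60, 120 or 240 ug/ml over the same time. Each of the 4 groups held 3 libraries. No carrier of the suspension, and no control that received one, is named in the sources used here. All groups were 1 cell line. The sources do not say that a group's 3 libraries were separate cultures, so the p-values measure only the spread among the libraries at hand, possibly a technical one.

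NMD is a surveillance pathway that degrades messenger RNAs on which a ribosome stops too early. When introns are removed, an exon junction complex is left just upstream of each exon junction. A ribosome that terminates upstream of a remaining complex lets UPF1, UPF2 and UPF3 assemble, the kinase SMG1 phosphorylates UPF1, and factors such as SMG5 and SMG6 direct cleavage, deadenylation and decapping. Many genes for splicing factors, ribosomal proteins and translation factors make such isoforms from an alternative or "poison" exon, and the isoform takes transcripts away from the coding pool. The annotation type is a prediction from the position of the stop codon. It is not a measurement of decay, and no half-life was measured in these libraries.

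All values are the deposited normalised signal of each transcript, and the sources used here do not say whether it was divided by transcript length. For every NMD transcript the share of its gene was computed as its signal divided by the summed signal of the gene's matched transcripts. Of the table's 267165 transcripts, 75.7% were matched to the annotation, and they held 93.8% to 94.7% of each library's signal. A gene's sum leaves out its unmatched transcripts, so a share can be overstated. The library totals ran from 791808 to 1228979 and were lower at every dose than in control. At 60 ug/ml library 3 differed from the other 2 of its group, and library 2 at 240 ug/ml had the lowest total. The line's label was checked on its markers: KRT18, KRT19, EPCAM and PAX8 were present, PTPRC, CD3E and VWF were at 0 in control, but LRP2, SLC22A6 and HNF4A, which mark differentiated proximal tubule, were at 0 too, and only 3 of 12 tubule markers passed the filter. Of 3 leukocyte markers 1, CD68, passed the filter, and it was called lower at 240 ug/ml (log2 fold change -0.61). Of 5 fibroblast markers 3 passed, and all 3 were called lower at 240 ug/ml (median log2 fold change -1.70). LUM, 1 of these, stood at 226 in control and 34.2 at 240 ug/ml. Of 5 epithelial markers 3 were called lower at that dose and 0 higher. The background was 23.5% lower and 19.7% higher of all genes. The part of these markers in the results was not tested.

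The coding ends of 9 NMD transcripts that the results turn on are shown to let a reader see the premature stop. Each line gives the last 30 bases of the annotated coding sequence, 5′ to 3′ on the transcript, with the stop codon in capitals.
TMEM39B-203: ctgcctgtcacccagcctcatccgcagTGA
ZNF592-202: gccccacagaccctcccagctcatttaTAA
EIF4A2-202: cgtgaaaactatattcacaggagtcgaTAG
RPL3-204: gtcccctccccaactctgctctgctccTGA
UPP1-209: ctatctcaatcatgttgcatgagctcaTAA
UPP1-202: agtggatacctgcttcaaggcagagttTGA
EMG1-204: ttccagagtaaagtcatgatggctttaTGA
HNRNPUL1-208: agcagcagcaggcctatcgtccagaaaTGA
PTBP1-207: gaggcgtctacggtgacgtgcagcgcgTGA

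The sequences and positions are those of GENCODE release 29 on GRCh38. The stop codon of EIF4A2-202 (chr3:186788317-186788319, plus strand) lies in a 107-base exon that no protein-coding transcript of the gene contains, 97 bases upstream of the last exon junction. That of EMG1-204 (chr12:6987827-6987829, plus strand) is in a 57-base exon of the same kind, 211 bases before the last junction. In RPL3-204 the stop (chr22:39316844-39316846, minus strand) falls in sequence that no coding transcript of the gene translates, 138 bases before the last junction. The remaining 6 stop in sequence that another transcript of the gene translates: TMEM39B-203 at chr1:32091903-32091905 (plus), ZNF592-202 at chr15:84798324-84798326 (plus), UPP1-202 at chr7:48106937-48106939 (plus), UPP1-209 at chr7:48103343-48103345 (plus), HNRNPUL1-208 at chr19:41272085-41272087 (plus) and PTBP1-207 at chr19:808384-808386 (plus). Their stops lay between 66 bases (UPP1-209) and 2030 bases (HNRNPUL1-208) before the last junction.

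The stop codons lay where the annotation rule puts them. Of the 3928 transcripts with an annotated stop codon, 3901 (99.3%) had it at least 50 bases upstream of the last exon junction, with a median of 319.5 bases (quartiles 155 and 675), and in 27 it was nearer or behind it. The stop fell in sequence coding in another transcript in 1910, in an exon absent from the gene's coding transcripts in 951 (median exon length 120 bases), in other sequence not translated in any coding transcript in 571, and on the very stop codon of a coding transcript in 436. In the last class the junction downstream of a normal stop is what sets the annotation. A further 60 lay in genes without a coding transcript and 5 had no annotated stop. The NMD transcripts were short: their median length was 1102 bases (quartiles 719 and 2156) with 7 exons, and 78.1% were shorter than the most abundant coding transcript of their gene. The evidence behind them was uneven. GENCODE gave support level 1 or 2 to 1717 and the lowest level, 5, to 1086, and for 1004 the start of the coding sequence was not found.

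Most NMD transcripts were a minor part of their gene in untreated cells. The median share in control was 5.49% (quartiles 2.09% and 14.4%), 2618 were under 10%, and 165 were over 50%. In 372 cases the NMD transcript carried more signal than any other transcript of its gene. Their levels were low, with a median of 1.77 over the 12 libraries and 352 above 10. Of the genes, 1876 had 1 such transcript, 596 had 2 and 243 had 3 or more, so transcripts of a gene share a denominator and are not independent. At the edge of the filter, 261 transcripts reached exactly 1.0 in their library of rank 3 and 276 reached 0.9. SLC25A23-201 (0.4 to 1.4) and STARD5-202 (0.3 to 1.3) were just inside, and ZNF76-201 (0.5 to 0.9) and FAAP24-201 (0 to 1.9) just outside. Only 12 NMD transcripts passed through a single group, 7 through control, 3 through 120 ug/ml and 2 through 240 ug/ml, and these had to differ. Transcripts that passed through several treated groups but not control were not counted. ZNF592-202 and ATP2A2-203, for example, stayed below 1 in every control library, so the filter partly built in their rise. The calls by share at 240 ug/ml given below include 2 of them, PAK1-209, which rose, and FAM91A1-204, which fell.

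Summed over all 3933, NMD transcripts took up a larger part of each library at the 2 higher doses. They held 1.71%, 1.75% and 1.78% of the signal in the control libraries and 1.75%, 1.74% and 2.00% at 60 ug/ml. The values were 2.04%, 2.07% and 2.19% at 120 ug/ml and then 2.10%, 2.31% and 2.29% with 240 ug/ml. Every library at 120 and 240 ug/ml was above every control library, while at 60 ug/ml 1 library was. The mean was 1.75% ± 0.03 (SD, n = 3) in control and 2.23% ± 0.11 (SD, n = 3) at 240 ug/ml, a ratio of 1.28, after 1.05 at 60 and 1.20 at 120 ug/ml. An exact two-sided permutation test gave p = 0.7 at 60 and p = 0.1 at 120 and 240 ug/ml, the smallest p that 3 against 3 allows. Without library 3 of that group the ratio at 60 ug/ml was 0.998. The summed NMD signal itself did not rise: it ran from 20376 to 21067 in control and, at 240 ug/ml, from 18269 to 20508, while the library totals fell to a mean of 0.744 of control. With the signal of the NMD transcripts' own genes as denominator, the part was 7.17%, 7.04% and 7.39% in the control libraries and 8.20%, 8.87% and 8.73% at 240 ug/ml, a ratio of 1.19 (exact permutation p = 0.1). The unweighted mean share per transcript moved less, from 11.9% ± 0.07 in control to 12.2% ± 0.08 (SD, n = 3) at 240 ug/ml. Taken over every matched NMD transcript, with no filter on level, the ratio at 240 ug/ml was 1.29.

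**Figure D1:**
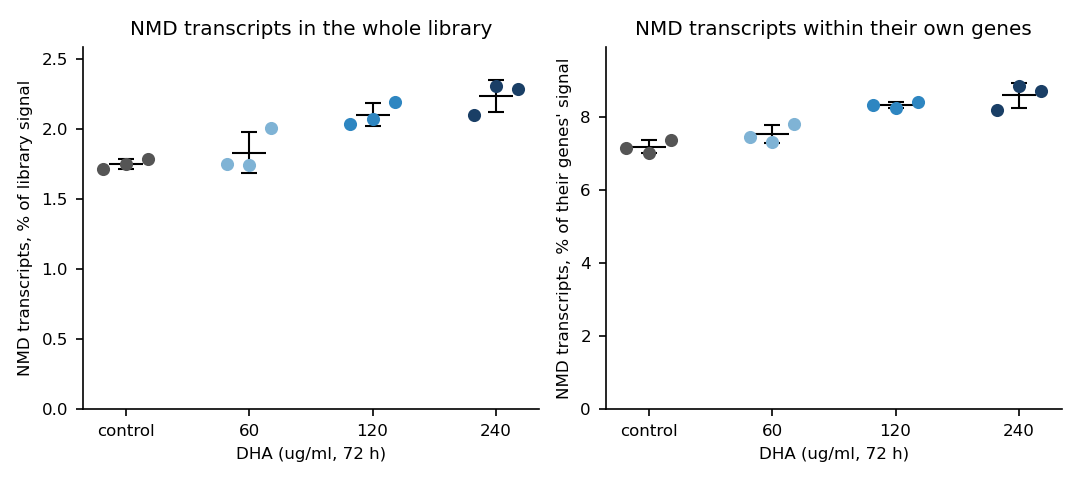
Signal of the 3933 NMD transcripts in each library, as a percentage of the library total (left) and of the summed signal of their own genes (right), by DHA dose in ug/ml. Points are libraries, bars the mean and SD of 3. At 120 and 240 ug/ml all libraries lie above the highest control (1.78% and 7.39%), and library 3 at 60 ug/ml (2.00%) lies above the other 2 on the left.

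The retained-intron and processed transcript types moved in the same direction. Retained-intron transcripts held 4.39% ± 0.07 of the library in control and 5.71% ± 0.57 at 240 ug/ml, and processed transcripts 3.07% ± 0.08 and 4.03% ± 0.31, whereas protein-coding transcripts held 80.9% ± 0.13 and 78.0% ± 1.39 (SD, n = 3 each; exact permutation p = 0.1 for all 3 types). Among the 3786 NMD transcripts whose share could be tested, the median change in share at 240 ug/ml was 0.218 percentage points, against 0.126 for all 47240 transcripts tested, 0.404 for retained introns, 0.378 for processed transcripts and -0.114 for protein-coding transcripts. The NMD medians at 60 and 120 ug/ml were 0.033 and 0.213 points, against 0.037 and 0.128 for all transcripts tested. At 60, 120 and 240 ug/ml 52.0%, 58.3% and 57.3% of the tested NMD transcripts had a higher mean share than control. Over all transcripts tested these were 51.9%, 54.2% and 53.7%. The difference between the types was not tested.

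The share of each transcript was tested on the arcsine square root scale with limma over all 47240 transcripts, each dose against control, with a Benjamini-Hochberg adjusted p under 0.05 as the call. At 240 ug/ml 60 NMD transcripts rose and 29 fell, 1.58% and 0.766% of those tested. The background, over transcripts of every type, was 2.01% higher and 1.88% lower. Both percentages for NMD transcripts were below the background. At 120 ug/ml 14 rose and 7 fell (0.370% and 0.185% of those tested), where the background was 0.559% higher and 0.449% lower. Of these 14, 11 were called at 240 ug/ml too, and of these 7, 6 were. The 2 comparisons share their control libraries. At 60 ug/ml limma called none in either direction, with a background of 0.00423% each way, and 136 were higher and 119 lower at an unadjusted p under 0.05, which is 3.59% and 3.14% of those tested against 4.26% and 3.6% of all transcripts. The counts at 240 ug/ml were sensitive to single libraries. They fell to 19 and 11 without the second library at 240 ug/ml and to 24 and 16 without the third, and to 25 to 29 rises and 11 to 15 falls when any 1 control library was left out. The counts at 120 ug/ml ran from 0 to 14 rises and from 1 to 9 falls over the 12 fits that each left out 1 library, with 0 or 1 rises without the first or second control or the first or second library at 120 ug/ml. Counted without a test, the 3 libraries at 240 ug/ml lay wholly above control for 583 NMD transcripts (15.4% of those tested, where the background was 14.8%) and wholly below for 318 (8.40%, where it was 11.6%). At 120 ug/ml these counts were 462 and 249 (12.2% and 6.58%, background 12.5% and 9.37%). At 60 ug/ml they were 252 and 228 (6.66% and 6.02%, background 7.49% and 6.21%). A test for any difference among the 4 groups called 35 of the 3786 NMD transcripts, with a background of 629 of 47240 (1.33%).

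**Figure D2:**
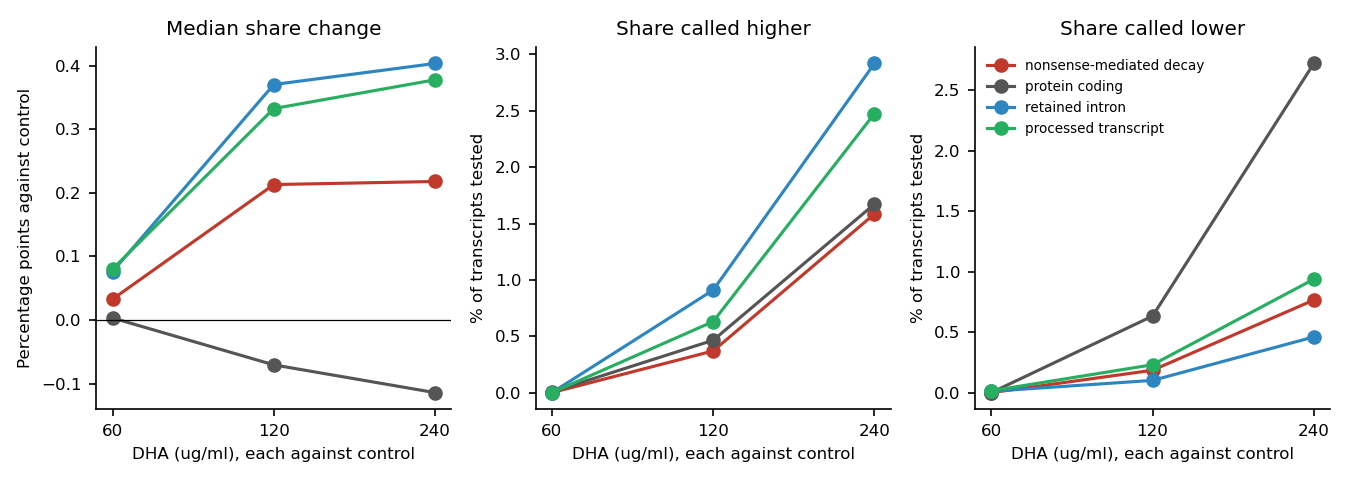
Change in share of gene against control at 60, 120 and 240 ug/ml DHA for 4 annotation types. The left panel gives the median change in percentage points, the other panels the percentage of tested transcripts called higher or lower by limma. NMD transcripts (median 0.218 points at 240 ug/ml) lie between protein-coding (-0.114) and retained-intron transcripts (0.404), and 1.58% of them were called higher and 0.766% lower at that dose.

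The median control share was 3.65% in the 60 transcripts that rose at 240 ug/ml, 14.7% in the 29 that fell and 5.11% in all tested. The control share is part of the change that was tested and a low share leaves little room to fall, so this difference is a description of the calls only. Of the 60 rises, 35 began under 5%. Their median gain was 5.53 points (0.199 to 24.2). Of the falls 2 began under 5%, and they lost a median of 8.42 points (1.57 to 22.8). The share changed in the same direction at each step of dose in 36 of the rises and 19 of the falls, and 51 of the 60 were already above the control mean at 60 ug/ml. These transcripts were picked on 240 ug/ml against control, and each dose is set against the same control libraries. The order of the doses is thus partly fixed by the choice and describes the calls only. It was not counted over all transcripts. By the position of the stop codon, transcripts stopping in an exon absent from coding transcripts gave 15 rises and 4 falls among 919 tested (1.63% and 0.435%), and those stopping in sequence coding elsewhere gave 30 and 15 among 1874 (1.60% and 0.800%). Transcripts on the stop codon of a coding transcript gave 7 and 7 among 422. Those longer than the gene's leading coding transcript gave 21 rises and 5 falls among 811 tested, and those no longer than it 39 and 24 among 2962. These splits were not tested.

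**Figure D3:**
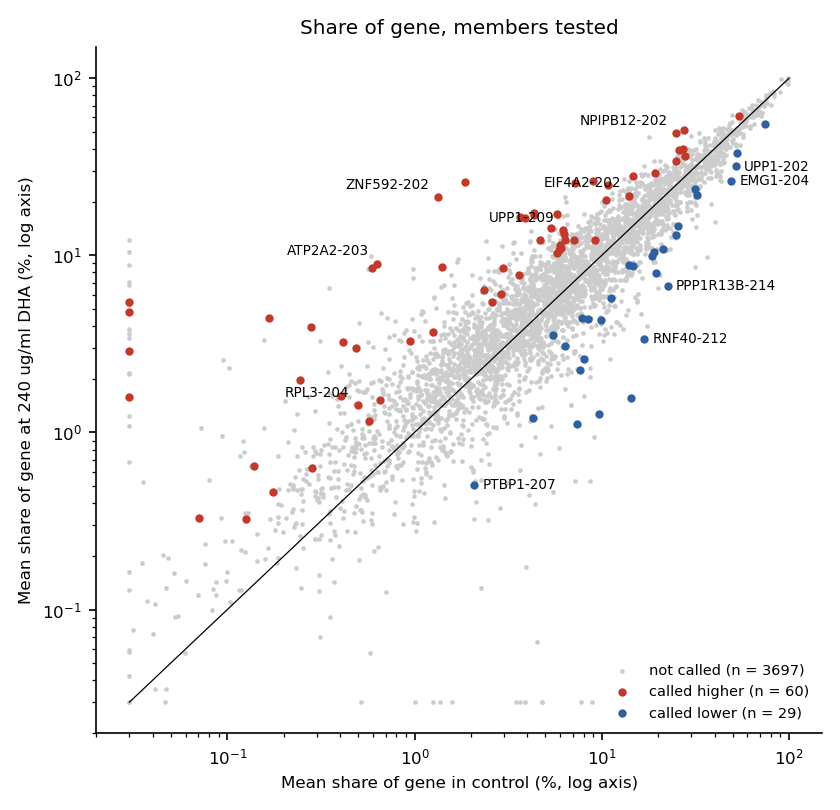
Mean share of gene of the 3786 tested NMD transcripts in control (horizontal) and at 240 ug/ml DHA (vertical), in percent on log axes, with shares under 0.03% drawn at the axis limit. Red points are the 60 called higher, blue points the 29 called lower and grey points those not called. Many red points start at shares under 5%, while EMG1-204 and UPP1-202 fell from about 50%.

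A higher share can come from more of the NMD transcript or from less of the rest of the gene, and both occurred. Of the 60 rises, the level of the NMD transcript itself rose in 40 on the log2(value + 1) scale. In 13 of these the rest of the gene fell and in 9 it rose. In 19 the transcript's own level was not called, and in 18 of those the rest of the gene fell. In the remaining rise, EIF3F-205, the level went from 148, 167 and 132 in control to 117, 109 and 99.7 at 240 ug/ml, a fall that was called as deposited but not with equal library totals or quantile normalization, while its share rose from 54.2% ± 1.63 to 61.5% ± 2.09 (SD, n = 3). Of the 29 falls, the NMD transcript fell in level in 19, was not called in 9, and in 1, UPP1-202, rose while the rest of the gene rose more. EIF3F-205 and UPP1-202 were singled out after their values were seen.

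The 89 calls by share at 240 ug/ml differed in how far they rested on single libraries. In 20 of the 89 the call was kept in all 12 fits that left out 1 library, and 64 lost it without library 2 at 240 ug/ml. With no variance trend 43 of the 89 lost it, and 57 lost it under at least 1 setting other than leaving out a library. Of the 27 called transcripts that are named below by a stated rule, 10 kept the call in all 12 fits that left out 1 library: ATP2A2-203, EIF4A2-202, EMG1-204, MTHFD2-205, NABP1-207, PPP1R13B-214, PTBP1-207, RPL3-204, UPP1-202 and ZNF592-202. RPL3-204 of these 10 lost the call with no variance trend, and the other 9 kept it under every setting in which they were tested. ZNF592-202 and PPP1R13B-214, with mean gene sums of 8.7 and 16.3, were not tested under the setting that required a gene sum of at least 20. The other 17 lost it in at least 1 fit, all of them without library 2 at 240 ug/ml, 14 without library 3 of that group, 14 without control library 2 and 12 each without control libraries 1 and 3. EIF3F-205 lost it in 11 of the 12 fits (adjusted p up to 0.153), TBL2-203 in 10 (up to 0.124), POLR2J3-219 in 9 (up to 0.116), RPL14-204 in 9 (up to 0.132) and SPIN3-214 in 7 (up to 0.118). HGH1-205 (up to 0.131) and EIF6-206 (up to 0.0802) lost it in 6, and AGPAT4-204 (up to 0.0903), KAT2A-202 (up to 0.0976), RNF40-212 (up to 0.106) and RPS19-204 (up to 0.0804) in 5. NPIPB12-202 (up to 0.0563), TMEM39B-203 (up to 0.069), ZMAT2-202 (up to 0.0572), RPL35-204 (up to 0.0683), HNRNPUL1-208 (up to 0.0615) and UPP1-209 (up to 0.0564) lost it in 2 to 4. Among transcripts picked after their values were seen, PAK1-209 kept the call in all 12 fits, EMG1-201 and RPL26-212 lost it in 5, DDX5-207 in 3, LIG1-207 in 8, LIG1-213 in 10 and FAM91A1-204 in 11. PAK1-209, which is among the 20, passed the filter through 240 ug/ml alone, and FAM91A1-204 through control alone. The filter thus built in their difference, and the call that PAK1-209 kept is no sign of firmness. ZNF592-202 and ATP2A2-203 passed it through treated libraries alone, so the filter favoured their rise too.

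Among the largest rises in share at 240 ug/ml, TMEM39B-203 overtook the main coding transcript of its gene. It made up 33.2%, 26.8% and 22.3% of TMEM39B in control, 37.1%, 44.9% and 38.5% at 60, 35.0%, 42.7% and 26.5% at 120 and 48.8%, 54.3% and 49.1% at 240 ug/ml. The groups at 60 and 240 ug/ml did not overlap with control and that at 120 did. The change at 240 ug/ml was 23.3 points (adjusted p = 0.0175), with the gene's summed level at 23.4 in both groups, and the coding TMEM39B-201 went from 54.2% ± 5.37 to 28.5% ± 5.86 (SD, n = 3).

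ZNF592-202, from a zinc finger gene, was nearly absent in control. Its share was 0%, 0% and 4% in control, 11%, 12.4% and 13.3% at 60, 16.3%, 14.9% and 12.2% at 120 and 18.6%, 21.6% and 23.7% at 240 ug/ml. Every treated library was above every control library, and the change was called at 120 (adjusted p = 0.0239) and 240 ug/ml (adjusted p = 0.00521). The values behind it were small, 0 to 0.3 in control and 1.6 to 2.4 at 240 ug/ml, and it passed the filter through treated libraries alone.

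ZMAT2-202 comes from the gene of a zinc finger protein of the spliceosome. Its share was 10.7%, 9.77% and 6.52% in control, 4.48%, 9.73% and 16.5% at 60, 15.8%, 16.4% and 20.5% at 120 and 24.4%, 27.4% and 27.1% at 240 ug/ml. Control and 60 ug/ml overlapped and the higher doses lay above control. The gain was 17.3 points at 240 ug/ml (adjusted p = 0.0152), where ZMAT2 as a whole fell from 89.5 ± 3.84 to 63.7 ± 13.8 (SD, n = 3) and ZMAT2-202 itself stood at 10.0, 8.4 and 5.8 in the control libraries and 17.1, 13.1 and 19.8 at 240 ug/ml (adjusted p = 0.0902 for its level).

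SPIN3-214, of a gene in the spindlin family of histone readers, went from 7.23% ± 5.24 to 25.5% ± 2.07 (SD, n = 3; adjusted p = 0.0389). HGH1-205 went from 5.59%, 0% and 0% to 16.7%, 38.8% and 22.2% (adjusted p = 0.0389). HGH1-205 was at 0 in the third library at 120 ug/ml as well. NPIPB12-202 had a share of 25%, 24.8% and 25% in the control libraries and 43.6%, 47.8% and 55.9% at 240 ug/ml (adjusted p = 0.0155). Its gene is one of a family of near-identical copies on chromosome 16, so how its reads were divided among copies is uncertain.

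The largest fall was in EMG1, whose product methylates 18S ribosomal RNA during ribosome assembly. EMG1-204 held 43.3%, 53.8% and 49.9% of the gene in control, 45.6%, 46.3% and 44.5% at 60, 29.7%, 38.0% and 37.2% at 120 and 27.4%, 22.7% and 28.6% at 240 ug/ml. The 2 higher doses were below control in every library, and the loss at 240 ug/ml was 22.8 points (adjusted p = 0.00563). EMG1 as a whole stayed at 39.9 ± 0.777 in control and 40.6 ± 7.32 at 240 ug/ml (SD, n = 3). Another NMD transcript of the gene, EMG1-201, was looked up after that result and rose. It went from 3.88% to 16.2% (adjusted p = 0.0281). The coding EMG1-202 went from 13.5% to 22.7%.

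UPP1 encodes uridine phosphorylase 1, an enzyme of pyrimidine salvage, and the gene is among those named in reviews as raised when NMD is blocked. UPP1-202 held 52.6%, 53.0% and 50.7% of UPP1 in control, 51.2%, 51.4% and 44.5% at 60, 36.3%, 37.3% and 39.7% at 120 and 38.6%, 28.8% and 27.8% at 240 ug/ml. It was below control in every library at the 2 higher doses (adjusted p = 0.0455 and 0.00596). UPP1-209 moved the other way, from 7.27%, 7.02% and 4.42% in control to 11.1%, 14.6% and 15.8% at 240 ug/ml (adjusted p = 0.0144), all above control. Summed over its transcripts, UPP1 rose from 45.9 ± 0.987 to 133 ± 16.8 (SD, n = 3), a log2 fold change of 1.5 (SE 0.11, adjusted p = 8.2e-06). The coding UPP1-203 made up 17.7% in control and 27.6% at 240 ug/ml. In level, UPP1-202 rose by a log2 fold change of 0.77 and UPP1-209 by 2.32.

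Besides EMG1 and UPP1, LIG1 was the only gene of the 86 with a called NMD transcript at 240 ug/ml in which 1 rose and another fell, a choice made after seeing the values. LIG1 encodes the DNA ligase that joins Okazaki fragments. LIG1-213 went from 24.9% to 34.1% (adjusted p = 0.0468) and LIG1-207 from 7.88% to 4.44% (adjusted p = 0.0389).

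PPP1R13B-214, from the gene of the p53-binding protein ASPP1, had shares of 18.5%, 24.5% and 24.3% in control, 24.9%, 20% and 21.5% at 60, 17.5%, 13.9% and 15.3% at 120 and 9.32%, 5.67% and 5.21% at 240 ug/ml. Control and 60 ug/ml overlapped, the 2 higher doses lay below control, and at 240 ug/ml the share was 15.7 points lower (adjusted p = 0.00681) in a gene whose sum was 15.4 in control and 16.5 at 240 ug/ml. KAT2A-202 (KAT2A is a histone acetyltransferase) fell from 52.8% ± 2.36 to 37.7% ± 4.77 (adjusted p = 0.0296) and RNF40-212 (RNF40 is a ubiquitin ligase for histone H2B) from 16.8% ± 3.50 to 3.38% ± 4.32 (SD, n = 3; adjusted p = 0.0361). RNF40-212 was at 0 in 1 library at 240 ug/ml. POLR2J3-219 fell from 74.0% ± 9.30 to 55.5% ± 0.329 (adjusted p = 0.0417), and POLR2J3 has near-identical copies, so its share is uncertain.

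At 120 ug/ml the largest rises were ZNF592-202, AGPAT4-204 and EIF4A2-202, and the largest falls UPP1-202, MTHFD2-205 and NABP1-207. AGPAT4-204, from an acyltransferase gene of phospholipid synthesis, held 26.8%, 24.1% and 27% in control, 44.1%, 36.8% and 40.5% at 120 and 36.1%, 43.8% and 38.7% at 240 ug/ml. Its own level stayed between 6.9 and 10.9 in the 12 libraries, while AGPAT4 as a whole fell from 29.7 ± 1.06 to 20.2 ± 0.985 at 240 ug/ml (SD, n = 3). MTHFD2-205, of the mitochondrial folate enzyme gene MTHFD2, fell from 18.8%, 23.3% and 21.3% in control to 12.1%, 12% and 13.5% at 120 (adjusted p = 0.0244) and 11.9%, 10.6% and 9.79% at 240 ug/ml. Its level was 9.3, 13.0 and 13.5 in the control libraries and 12.4, 9.9 and 10.8 at 240 ug/ml, with the gene's sum up from 56.2 ± 7.02 to 102 ± 8.69 (SD, n = 3). NABP1-207, from the gene of a single-stranded DNA-binding protein, fell in both share (19.1% to 11% at 120 ug/ml, adjusted p = 0.0244) and level (log2 fold change -1.31, adjusted p = 0.000249), and had already fallen in level at 60 ug/ml (log2 fold change -1.20, adjusted p = 0.0028).

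**Figure D4:**
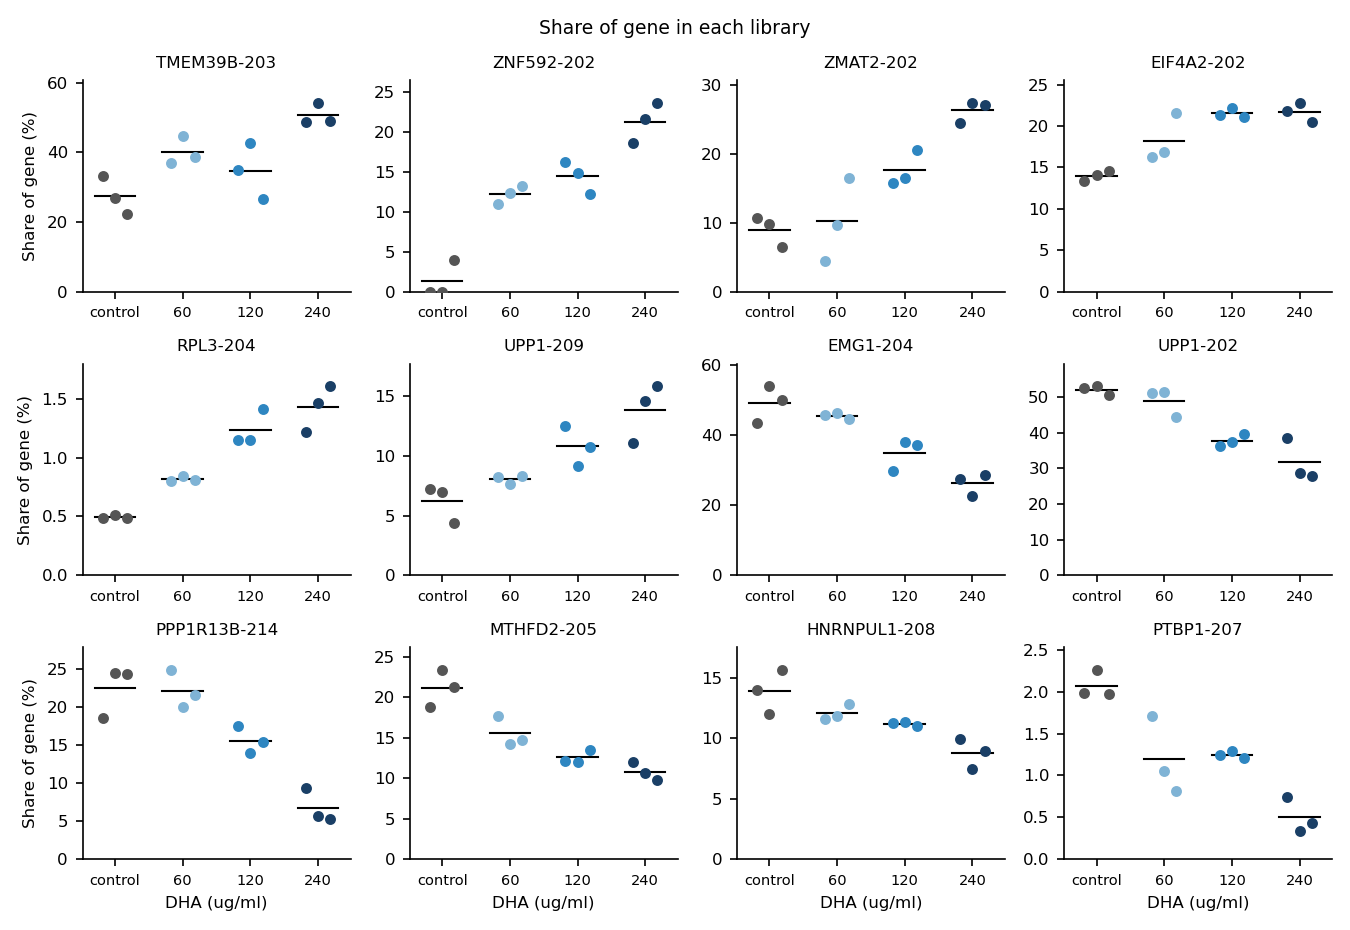
Share of gene in percent in each library for 12 NMD transcripts, by DHA dose in ug/ml. Points are libraries and bars group means of 3, and each panel has its own axis from 0. The first 6 panels were called higher at 240 ug/ml and the last 6 lower, and in all 12 the 240 ug/ml libraries do not overlap with control.

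The level of each NMD transcript was tested as well. On the log2(value + 1) scale with limma over 61128 transcripts, 27 rose and 46 fell at 60 ug/ml (background 1.68% higher and 1.75% lower), 194 and 183 at 120 ug/ml (6.76% and 8.13%), and 293 and 262 at 240 ug/ml (9.74% and 10.6%). The members called at 240 ug/ml were 7.45% and 6.66% of the 3933, below the background in both directions. At 60 ug/ml they were 0.686% and 1.17%, and at 120 ug/ml 4.93% and 4.65%. When each library was scaled to the same total, the median log2 fold change over all transcripts at 240 ug/ml went from 0.04 to 0.32, and 848 NMD transcripts rose and 124 fell, with a median of 0.33. The direction of the level counts therefore rests on the scaling, whereas a share within a gene does not depend on it. The largest level changes at 240 ug/ml were upward in ATP2A2-203, ITGA3-203, DDX5-203 and HGH1-205. ATP2A2-203, of the sarco/endoplasmic reticulum calcium pump gene, was at 0, 0.9 and 0.7 in control, 2.3, 2.8 and 7.8 at 60, 6.2, 6.4 and 10.4 at 120 and 8.4, 9.5 and 12.9 at 240 ug/ml. Its groups did not overlap with control at any dose, and the log2 fold change at 240 ug/ml was 2.91 (SE 0.37, adjusted p = 0.000523). Its share of ATP2A2 rose from 0.632% to 8.96% (adjusted p = 0.00668). ATP2A2-203 passed the filter through treated libraries alone.

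DDX5, an RNA helicase gene involved in splicing, held NMD transcripts that moved in opposite ways. DDX5-203 was at 4.4, 5.8 and 2.1 in the control libraries and 30.2, 15.9 and 47.3 at 240 ug/ml (log2 fold change 2.60, SE 0.58, adjusted p = 0.00929), and its share went from 0.985% to 7.41% without passing the share test (adjusted p = 0.0652). DDX5-207, named after its values were seen, fell from 25.7% to 14.6% of the gene (adjusted p = 0.0163), with the gene's sum at 416 in control and 413 at 240 ug/ml. ITGA3-203, from the integrin alpha 3 gene, stood at 3.4, 0 and 2.3 in the control libraries and 10.8, 19.7 and 16.9 at 240 ug/ml (adjusted p = 0.00469), in a gene that rose from 441 to 872. It remained under 2.5% of ITGA3 in every library.

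The largest downward changes in level were those of AC008764.4-206, B2M-212, OPN3-206 and CPM-212, and in the last 3 the gene fell as well. B2M-212, from the gene of beta-2-microglobulin, the light chain of class I histocompatibility molecules, went from 46.9, 32.7 and 33.9 to 10.5, 3.9 and 8.9 (log2 fold change -2.22, adjusted p = 0.000986), while B2M went from 713 ± 47.4 to 265 ± 50.9 (SD, n = 3). OPN3-206, of an opsin gene, went from 19.0, 21.7 and 16.1 to 3.9, 2.5 and 3.5 with a share of 39.8% in control and 32.3% at 240 ug/ml (adjusted p = 0.32 for the share). CPM-212, of carboxypeptidase M, went from 6.3, 15.4 and 6.3 to 1.7, 2.6 and 0. AC008764.4-206 was at 8.6, 9.9 and 1.5 in control and at 0, 0.1 and 0 at 240 ug/ml, and its gene was too low for a share test. The level call of AC008764.4-206 was lost in 4 of the 12 fits that left out 1 library (adjusted p up to 0.0787).

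The 8 NMD transcripts with the most signal were not called by share at 240 ug/ml (adjusted p from 0.0665 to 0.999). HNRNPA1-205, whose stop is the normal stop codon followed by a spliced 3′ untranslated region, was the highest. HNRNPA1 encodes a splicing regulator. HNRNPA1-205 made up 70.5%, 69.3% and 70.1% of HNRNPA1 in control and 65.6%, 65.5% and 62.7% at 240 ug/ml. Every library at 240 ug/ml was below control, but the share test was not passed (adjusted p = 0.0862). Its level was 1007, 1054 and 914 in the control libraries and 692, 494 and 663 at 240 ug/ml, a log2 fold change of -0.70 (adjusted p = 0.00487) that became 0.00812 with quantile normalization (adjusted p = 0.96). RPS3-218, from a ribosomal protein gene of the small subunit, fell in level from 741, 748 and 578 to 460, 332 and 353 (adjusted p = 0.00583, a call lost with quantile normalization) at a share of 27.5% in both groups, and RPS3-216 had 10.8% and 10.4%. HNRNPA2B1-203 held 65.1% ± 3.02 and 65.9% ± 6.77 (SD, n = 3), SLC2A1-208, from the glucose transporter gene, 75.8% ± 9.80 and 80.4% ± 2.73, and DSTN-202, from the actin-severing factor gene, 35.9% ± 1.46 and 31.9% ± 1.82. COX6C-207 and PDAP1-202 held means of 74.9% and 62.9% in control against 79.4% and 67.2% at 240 ug/ml.

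Among genes with a mean sum of at least 20, those given over most fully to an NMD transcript were AL591806.3-201 (98.4% in control, 93.2% at 240 ug/ml), PFDN4-202 (89.1% and 83.7%), HSPA9-208 (82.2% and 84.8%), YIPF4-202 (78.7% and 82.2%), SLC2A1-208 and SLC25A4-202 (76.7% and 79.5%). The gene of AL591806.3-201 has no coding transcript in the annotation, and another NMD transcript, AL591806.3-202, held the rest of it (1.62% in control). Its high share therefore follows from the annotation. HSPA9-208 was matched to the annotation under a different version. PFDN4 is a subunit of the prefoldin chaperone, HSPA9 the mitochondrial Hsp70 and SLC25A4 an ADP/ATP carrier. None was called by share at 240 ug/ml. By level, HSPA9-208 rose with its gene, from 58.0, 55.1 and 53.1 to 89.1, 86.8 and 116 (adjusted p = 0.00585), while AL591806.3-201 (log2 fold change -0.81, adjusted p = 0.00136) and PFDN4-202 (-0.94, adjusted p = 0.00851) fell.

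Of 14 genes for NMD factors, the proteins that carry out the decay, 9 rose and 0 fell at 240 ug/ml on the summed gene level (limma over 16789 genes, background 19.7% higher and 23.5% lower), with a median log2 fold change of 0.35 against -0.03 for all genes tested. At 120 ug/ml 9 rose and 0 fell (background 15.9% and 20.8%), and at 60 ug/ml 6 rose and 1, PNRC2, a bridge to decapping, fell (background 8.89% and 10%). The fall of PNRC2 was not called with equal library totals or quantile normalization. The 9 at 240 ug/ml were the core helicase UPF1, its partners UPF2 and UPF3B, the kinase SMG1 and its regulator SMG9, the phospho-UPF1 reader SMG5, the helicase DHX34, and RUVBL1 and RUVBL2. UPF1 was at 48.5, 51.5 and 48.0 in control, 71.3, 66 and 67.2 at 60, 68.0, 76.9 and 71.6 at 120 and 66.2, 79.0 and 71.7 at 240 ug/ml. All treated libraries lay above all control libraries, and the log2 fold change at 240 ug/ml was 0.54 (SE 0.08, adjusted p = 0.000273). UPF2 differed in its course: it was at 9.8, 8.2 and 9.9 in control, 8.3, 9.0 and 11.5 at 60, 12.5, 12.3 and 12.8 at 120 and 14.5, 16.8 and 16.5 at 240 ug/ml, with an overlap with control at 60 ug/ml only.

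SMG1 went from 12.9 to 22.8 and SMG5 from 55.8 to 80.9 at 240 ug/ml. DHX34 had the largest change of the 14, from 11.4 to 22.2 (log2 fold change 0.90, SE 0.09, adjusted p = 3.1e-05). UPF3A, SMG6, SMG8, NBAS and PNRC2 were not called at 240 ug/ml. The count of 9 was the same with quantile normalization and was 13 with equal library totals. The 4 NMD transcripts of these genes, DHX34-202, RUVBL1-208, RUVBL2-207 and RUVBL2-208, had no called share by limma and 0 at an unadjusted p under 0.05 at 240 ug/ml, with DHX34-202, picked afterwards as an example, at 18.8% in control and 13.6% at 240 ug/ml (adjusted p = 0.288). Of 10 exon junction complex genes 2 rose, RNPS1 and CWC22, and 1 fell, PYM1, which takes the complex off the RNA. With equal library totals 7 rose and 1 fell. PYM1 went from 28.3 to 17.2 (log2 fold change -0.70, adjusted p = 0.00052), while EIF4A3, MAGOH and RBM8A of the core stood at log2 fold changes of 0.20, -0.08 and -0.09 and were not called. With equal library totals EIF4A3 (0.63, adjusted p = 0.000438) and MAGOH (0.35, adjusted p = 0.0297) were called higher and RBM8A stood at 0.34 (adjusted p = 0.101), and with quantile normalization EIF4A3 was called higher (0.34, adjusted p = 0.00475). Of 12 genes for termination and decay enzymes, 4 rose at 240 ug/ml, the release factors ETF1 and GSPT1 and the decapping enhancers EDC3 and EDC4, and 1, the decapping cofactor DCP1B, fell. With equal library totals 10 rose and 0 fell, with quantile normalization 8 rose and 1 fell, and the fall of DCP1B lost its call when either of the first 2 control libraries or library 2 or 3 at 240 ug/ml was left out.

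**Figure D5:**
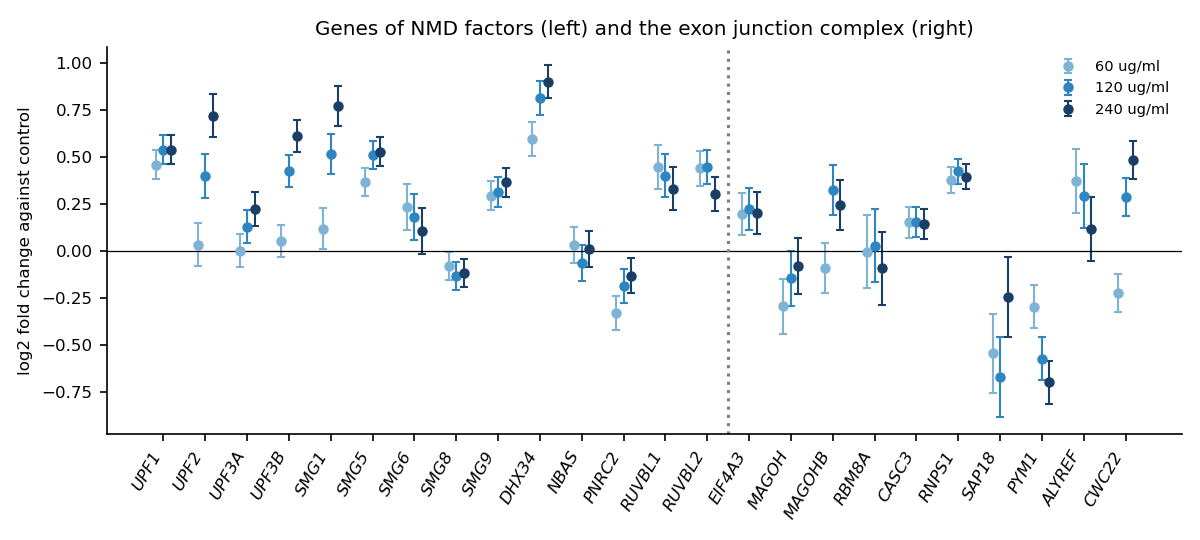
Gene-level log2 fold change against control on the log2(value + 1) scale, with its standard error, for 14 NMD factor genes (left of the dotted line) and 10 exon junction complex genes (right) at 60, 120 and 240 ug/ml DHA. At 240 ug/ml 9 of the 14 NMD factors were called higher and 0 lower, DHX34 with 0.90, and in the complex RNPS1 and CWC22 were called higher and PYM1 lower.

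A list of 22 genes that textbooks and reviews name as raised when NMD is weak held calls in both directions. At 240 ug/ml 12 rose and 6 fell (background 19.7% and 23.5% of all genes), with a median log2 fold change of 0.35. With equal library totals 15 rose and 2 fell, and 3 fell when control library 1 or library 2 at 240 ug/ml was left out. The largest rises were UPP1 (1.5), the asparagine synthetase gene ASNS (1.44), the pseudokinase gene TRIB3 (1.16), the transcription factor gene ATF3 (0.90) and the tRNA synthetase gene CARS1 (0.86). ASNS, TRIB3 and ATF3 are known targets of the stress factor ATF4 as well. ASNS went from 53.4 to 147 and TRIB3 from 108 to 244. The snoRNA host genes split: GAS5 (0.74), SNHG12 (0.76) and SNHG1 (0.63) rose, ZFAS1 (-0.48) and SNHG8 (-0.56) fell, and SNHG15 stood at 0.01. With equal library totals ZFAS1 stood at -0.05 and SNHG8 at -0.14, and neither was called (adjusted p = 0.77 and 0.465), whereas SNHG15 was called higher (0.42, adjusted p = 0.0114). GABARAPL1, an autophagy gene, fell by 1.71 on the log2 scale and GADD45B by 0.91, and both were called lower under each scaling. ATF4 itself went from 11.8 to 13.1 and was not called (adjusted p = 0.48), but it was with equal library totals (log2 fold change 0.54, adjusted p = 0.015). The list's genes held 14 of the NMD transcripts, of which UPP1-209 rose in share and UPP1-202 and TBL2-203 fell (background 2.01% higher and 1.88% lower of all transcripts). TBL2-203 had shares of 6.99%, 10.5% and 12.3% in control, 11.5%, 11.7% and 14.4% at 120 and 3.47%, 5.30% and 4.24% at 240 ug/ml (adjusted p = 0.043), so only the highest dose lay below control.

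Splicing factor genes are the classic hosts of poison exons. Over all transcripts 2.01% were called higher and 1.88% lower by share at 240 ug/ml. The counts of NMD isoforms in these genes were not tested against that background. The 14 SR and TRA2 genes held 19, and limma called none at 240 ug/ml, with 0 higher and 2 lower at an unadjusted p under 0.05. The following 5, picked after their values were seen, are examples. SRSF1-206 went from 28.8% to 23.6% of its gene (adjusted p = 0.104), SRSF2-204 from 3.04% to 1.48% (adjusted p = 0.152), TRA2B-206 from 34.9% to 36.2% (adjusted p = 0.656), SRSF3-203 from 8.14% to 7.16% (adjusted p = 0.633) and SRSF6-202 from 14.2% to 15.9% (adjusted p = 0.767). Of the 59 in genes for hnRNPs and other splicing regulators, 0 rose and 2 fell at 240 ug/ml (background 2.01% and 1.88%). PTBP1-207, of the polypyrimidine tract-binding repressor gene, made up 1.99%, 2.26% and 1.97% of PTBP1 in control, 1.71%, 1.06% and 0.814% at 60, 1.24%, 1.30% and 1.21% at 120 and 0.740%, 0.333% and 0.437% at 240 ug/ml. All treated libraries were below all control libraries, and the test was passed at 240 ug/ml (adjusted p = 0.00813). PTBP1 as a whole rose from 254 ± 10.9 to 376 ± 14.3 (SD, n = 3). HNRNPUL1-208, of an hnRNP U-like RNA-binding protein gene, fell from 14%, 12.1% and 15.7% to 9.95%, 7.46% and 8.95% at 240 ug/ml (adjusted p = 0.0167). The 37 in core spliceosome genes had no call by share with limma at any dose, with 2 higher and 3 lower at an unadjusted p under 0.05 at 240 ug/ml.

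In the cytosolic ribosomal protein genes the denominator of the share moved. All 81 tested of 84 fell at the gene level at 240 ug/ml (background 23.5% of all genes), 73 with equal library totals, and with quantile normalization 52 fell and 2 rose. Their 42 NMD transcripts had 5 rises and 0 falls in share (background 2.01% and 1.88% of all transcripts), at very low shares: RPL3-204, RPL14-204, RPL35-204, RPS19-204 and, named after its values were seen, RPL26-212. RPL3-204 made up 0.487%, 0.514% and 0.491% of RPL3 in control, 0.804%, 0.843% and 0.809% at 60, 1.15%, 1.15% and 1.41% at 120 and 1.21%, 1.46% and 1.60% at 240 ug/ml. The groups were separate from control at every dose, and the change was called at 120 (adjusted p = 0.011) and 240 ug/ml (adjusted p = 0.00268). Its own level was 12.8, 14.4 and 10.4 in the control libraries and 17.5, 13.4 and 18.2 at 240 ug/ml, which overlap and were not called (log2 fold change 0.36, adjusted p = 0.15), while RPL3 fell by 1.13 on the log2 scale (adjusted p = 0.000366). That fall was -0.69 with equal library totals and -0.17 with quantile normalization, where it was not called (adjusted p = 0.144).

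RPL14-204 showed the same, with levels of 5.2, 4.4 and 4.1 in the control libraries and 5.2, 3.9 and 4.8 at 240 ug/ml under a gene that fell from 804 ± 51.7 to 405 ± 90.3 (SD, n = 3). In RPL35-204 and RPS19-204 the NMD transcript itself rose, RPL35-204 from 2.9, 4.0 and 4.2 to 9.0, 7.0 and 6.6 (adjusted p = 0.00719) and RPS19-204 from 2.5, 2.7 and 1.8 to 3.9, 4.0 and 4.0 (adjusted p = 0.0188, and up to 0.065 with 1 library left out). By level, 14 of the 42 fell and 3 rose at 240 ug/ml (background 10.6% and 9.74%). Ribosomal protein genes have many processed pseudogenes, and the sources used here do not say how reads were divided with them.

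Among translation factor genes 28 NMD transcripts were tested, and 3 rose and 0 fell in share at 240 ug/ml (background 2.01% and 1.88% of all transcripts). Of the 3 only EIF4A2-202 kept its call in all 12 fits that left out 1 library, while EIF6-206 lost it in 6 and EIF3F-205 in 11. EIF4A2-202, of the initiation helicase eIF4A2, carries the 107-base exon whose stop is shown above. It made up 13.3%, 14.1% and 14.6% of EIF4A2 in control, 16.3%, 16.9% and 21.5% at 60, 21.4%, 22.2% and 21.1% at 120 and 21.8%, 22.8% and 20.5% at 240 ug/ml. Every treated library was above every control library, with calls at 120 (adjusted p = 0.0216) and 240 ug/ml (adjusted p = 0.00894) and the same mean at both within their spread (21.6% ± 0.541 and 21.7% ± 1.14, SD, n = 3). Its level rose as well, from 44.7, 45.2 and 39.7 to 72.9, 79.3 and 72.0 (log2 fold change 0.78, adjusted p = 0.00118), with EIF4A2 as a whole at 310 ± 33.9 and 344 ± 8.71. The coding EIF4A2-201 went from 28.9% to 7.93%, and the retained-intron EIF4A2-225 from 0% to 12.7%. EIF6-206, of the factor that keeps free large ribosomal subunits apart, rose from 9.23%, 9.02% and 9.52% to 12.4%, 11.9% and 12.2% (adjusted p = 0.0242). The other was EIF3F-205, described above.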

How the data were processed

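RNA from 12 libraries of HK-2 cells was compared. Per the labels' protocols, poly(A) RNA was selected, strand was marked with dUTP in second-strand synthesis, and reads were paired-end. The deposited table holds a normalised signal per Ensembl transcript with 1 decimal, which the authors made from their reads on the build GRCh38.p14, per the submitters' processing notes. The sources used here name no aligner, quantifier, strand setting, annotation release or read depth, so no counting error could be attached. All 12 columns matched 1 sample each and no pair of libraries was identical.

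Transcript identifiers were matched without version to GENCODE release 29 (3816 of the 3933 NMD transcripts had the same version), and gene sums were taken over matched transcripts. The tests assumed this unit, since the table holds no counts. Shares were tested for transcripts with a value of at least 1 in 3 libraries, in genes with at least 2 transcripts, a mean gene sum of at least 5 and a sum above 0 in every library. limma 3.58.1 in R 4.3.3 fitted 4 group means to the arcsine square root of the share, with a variance trend on the gene sum. Of the NMD transcripts 147 were not tested. Levels and gene sums were tested by limma with a trend on log2(value + 1), which understates changes of low values. P-values are two-sided and Benjamini-Hochberg adjusted over all transcripts or genes tested, at 0.05. Group totals were compared by exact permutation. On simulated shares for 240 ug/ml against control, 44412 transcripts were tested, with 50 changed per size. The changed transcripts were drawn, over all types, from those with a mean share between 10% and 50% in genes with a mean sum of at least 20. Of these, 28% of 1.5-fold, 64% of 2-fold, 54% of 0.5-fold and 100% of 4-fold changes were recovered. Of 231 calls 12 were counted as false, and others were neither changed transcripts nor counted as false. Recovery was not tested at lower shares or in genes of lower sum, and 2618 of the 3933 NMD transcripts had a control share under 10%. These percentages may thus not hold for NMD transcripts of low share or level.

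Named transcripts are the 6 largest called share rises and falls at 240 ug/ml, the 3 largest each way at 60 (none was called) and 120 ug/ml, the 8 with the highest mean signal, the 6 with the highest mean share in genes with a mean sum of at least 20, every one called at 240 ug/ml in the NMD factor, exon junction complex and SR lists and up to 4 in each other list, and the 4 largest called level changes each way. Others were named after their values were seen. The NMD factor list as first written held 1 more gene, which is not reported here and is left out of its counts. The members, lists and tests were chosen with earlier results of these data known. Alternatives covered the share scale, denominators, filters, pseudocounts, library scaling, a replicate block and each library left out.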

Additional observations from a re-analysis of the deposited data

How the results depend on the processing

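Share counts of NMD transcripts are given here as rises and falls. At 240 ug/ml (60 and 29) the log2 ratio to the rest of the gene with a pseudocount of 1 gave 155 and 51, and a fit with no variance trend 32 and 18. At 120 ug/ml (14 and 7) these gave 69 and 19, and 1 and 1. Also at 120 ug/ml, untransformed shares gave 8 rises, the log2 ratio with a pseudocount of 0.1 gave 3 falls, a denominator of coding and NMD transcripts 3 falls, a filter of any value above 0 in 3 libraries 9 and 4, and a gene sum of at least 20 gave 11 falls. Leaving out 1 library at a time gave 0 to 1 rises and 0 to 1 falls at 60, 0 to 14 and 1 to 9 at 120, and 19 to 67 and 11 to 33 at 240 ug/ml. Level counts at 60, 120 and 240 ug/ml with equal library totals were 51 and 23, 525 and 85, and 848 and 124. With the filter above 0 they were 11 and 17 at 60, 119 rises at 120 and 183 rises at 240 ug/ml. Leaving out 1 library gave 5 to 26 and 9 to 51, 94 to 209 and 104 to 198, and 176 to 316 and 166 to 278. The cause of these shifts was not tested, apart from the number of transcripts that each filter let in. The NMD part of the library total against control ran from 0.998 to 1.07 at 60, 1.17 to 1.22 at 120 and 1.26 to 1.31 at 240 ug/ml with 1 library left out. It reversed at 60 ug/ml without library 3 of that group (0.998), and with the transcripts' own genes as denominator it was 1.19 at 240 ug/ml. The level of HNRNPA1-205 reversed with quantile normalization (log2 fold change 0.00812).

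Replicate numbers paired the libraries weakly at most. At transcript level, deviations of same-numbered libraries correlated between 0.013 and 0.082 and those of differently numbered libraries between -0.084 and 0.036. For shares the ranges were -0.031 to 0.037 and -0.063 to 0.041. A replicate block gave 14 and 7 share calls at 120 and 60 and 30 at 240 ug/ml. Of 447 checks of single named transcripts by share under settings other than leaving out a library, 405 kept their side of the threshold, 37 lost the call and 5 gained it. A change of direction was counted only where either fit called the transcript, and none was found. Uncalled transcripts could change sign: RPS3-218 stood at -0.000146 on the arcsine scale and at 0.0128 percentage points untransformed. Read depth is unknown, so low values carry an unstated counting error.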

Other observations

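Further NMD transcripts called by share at 240 ug/ml are given here as single transcripts, picked after their values were seen. Of these, HADHA-207 lost its call in 3 of the 12 fits that left out 1 library, FIS1-204 in 10, PVR-201 in 5, ERO1A-206 in 9, NT5C2-207 in 7 and P4HB-220 in 1, while NDUFA13-202, QDPR-205, WASHC3-212, RAPGEF3-217 and TM4SF1-204 kept it in all 12. HADHA-207, from the gene of the alpha subunit of the trifunctional protein of fatty acid oxidation, made up 12.2%, 10.1% and 9.95% of its gene in control, 20%, 19.2% and 20% at 60, 15.4%, 14.1% and 19.3% at 120 and 31.1%, 27.5% and 16.7% at 240 ug/ml (adjusted p = 0.0187), with every treated library above every control library. NDUFA13-202, from a gene of respiratory complex I, rose from 0.324%, 0.415% and 0.468% to 1.19%, 2.07% and 1.57% (adjusted p = 0.00932) while its gene went from 480 ± 43.3 to 206 ± 64.9 (SD, n = 3). FIS1-204, from a gene of mitochondrial fission, rose from 12.8%, 10.1% and 8.92% to 15.0%, 26.7% and 19.7% (adjusted p = 0.0438), with its own level at 10.7, 9.6 and 7.4 in the control libraries and 9.1, 11.9 and 11 at 240 ug/ml. QDPR-205, from the dihydropteridine reductase gene, rose from 6.80%, 4.51% and 4.79% to 14.8%, 13.5% and 14.6% (adjusted p = 0.00596) in a gene at 38.3 in control and 39.6 at 240 ug/ml. WASHC3-212, of an actin-regulating complex on endosomes, rose from 4.80%, 3.40% and 4.83% to 15.2%, 19.2% and 15.9% (adjusted p = 0.0054) while its gene fell from 53.0 to 21.7. PVR-201, from the poliovirus receptor gene, rose from 25.9%, 26.9% and 30.8% to 36.9%, 35.2% and 36.9% (adjusted p = 0.0296), and its gene rose from 99.7 to 143. RAPGEF3-217, of a cyclic AMP-activated exchange factor gene, rose from 0%, 1.79% and 0% to 8.00%, 7.57% and 9.84% (adjusted p = 0.00661) in a gene that rose from 11.7 to 36.7.

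Falls were picked in the same way. P4HB-220, from the protein disulfide isomerase gene, went from 7.2%, 6.06% and 5.90% to 3.87%, 2.30% and 3.09% (adjusted p = 0.0135), and in level from 74.6, 61.7 and 53.8 to 28.1, 13.5 and 20.4. ERO1A-206, from the gene of the oxidase that recharges it, went from 10.4%, 6.56% and 8.50% to 4.15%, 4.26% and 4.73% (adjusted p = 0.0399), with the gene up from 72.0 to 109. TM4SF1-204, of a membrane protein of the tetraspanin-like L6 family, held 15.1%, 14.5% and 14.6% in control, 11.1%, 11.6% and 9.30% at 60, 8.04%, 8.23% and 7.28% at 120 and 8.77%, 8.04% and 9.43% at 240 ug/ml (adjusted p = 0.00507). Its level stayed between 22.2 and 28.1 in the control and 240 ug/ml libraries, while TM4SF1 rose from 176 ± 11.6 to 295 ± 17.8 (SD, n = 3). NT5C2-207, of a purine nucleotidase gene, went from 8.90%, 6.54% and 6.76% to 0.407%, 0% and 2.93% (adjusted p = 0.0415).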
